A study of Sus scrofa with 18 samples.

Results

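The nitric oxide and cGMP relaxation genes described here are 8 genes of 1 signalling chain: NOS3, GUCY1A1, GUCY1B1, NPR1, NPR3, PRKG1, PDE5A and PDE3A. They were chosen by name and not by any measured value, although earlier results of these data were known. The choice was out of 28210 RefSeq genes on the named chromosomes of Sscrofa11.1, of which 19550 are protein-coding. RefSeq lists GUCY1A1 and GUCY1B1 under their older symbols GUCY1A3 and GUCY1B3. A peak was assigned to a gene when it touched the gene or the 3 kb on either side of it. All 8 genes had at least 1 peak in each of the 6 peak lists, with 177 peaks in all.

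Nitric oxide made by endothelial nitric oxide synthase diffuses into smooth muscle and binds soluble guanylate cyclase, which then makes cyclic GMP. Natriuretic peptides raise cyclic GMP through a receptor that is itself a guanylate cyclase. Cyclic GMP activates a protein kinase that lowers calcium in the muscle cell and lets it relax, and phosphodiesterases end the signal by cutting cyclic nucleotides. Relaxation of this kind is known from blood vessels and from the uterine muscle, which stays largely quiet while a pregnancy is carried.

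The lists come from the myometrium of Yorkshire gilts on day 15, on the mesometrial side of the uterus, profiled with the CUT&Tag method for H3K4me3, a histone mark of active promoters, and H3K27ac, a mark of active promoters and enhancers. GD15M_CM is the inner circular muscle of pregnant gilts, GD15M_LM is the outer longitudinal muscle of pregnant gilts, and CD15M_CM is the circular muscle of cyclic gilts that were not mated. Each group held 2 gilts, and an IgG library served as the background. The authors pooled the replicates before peak calling, so every value below is 1 value per group with no replicate check. No test between groups could be made from these lists. The paper ran its own test of differing regions. Between GD15M_CM and CD15M_CM it reported far fewer such regions for H3K27ac than for H3K4me3. In that comparison, no differing H3K27ac region lay within 3 kb of the start site of a gene whose expression differed. Between GD15M_CM and GD15M_LM the paper reported many more differing regions for each mark. The differences below were not checked against that test. The muscle was dissected by hand from frozen tissue and may also hold vessels and other cells, and a smaller number of cells carrying a mark cannot be told apart from less of the mark per cell.

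Each peak has a fold enrichment over IgG and a rank by that value within its own list, given here as a percentile in which 100 is the strongest peak. The percentile of a gene is that of its strongest peak. Percentiles were used between groups because the lists differ in size, from 31910 to 36331 peaks for H3K4me3 and from 57010 (GD15M_LM) to 82037 (CD15M_CM) for H3K27ac. RefSeq positions were used without strand, so the ends of a gene are called the low-coordinate and the high-coordinate end, and which of them holds the start site was not read from the reference.

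The strongest peak of NOS3 or of NPR3 was the weakest among those of the 8 genes in each list. For H3K4me3, the median percentile of the 8 genes was 78.3 in GD15M_CM, 81.2 in GD15M_LM and 88.9 in CD15M_CM, beside 81.5, 80.2 and 82.5 for all protein-coding genes with a peak. For H3K27ac, the medians were 87.9, 95.4 and 88.5 in the same order, beside 88.0, 84.4 and 86.2. The range over the 8 genes was much wider than the distance between these medians, from 57.7 (NOS3) to 99.3 (PRKG1, through a peak in the nested gene CSTF2T) for H3K4me3 in GD15M_CM and from 21.3 (NPR3) to 99.5 (PDE3A) for H3K27ac in GD15M_LM.

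**Figure D1:**
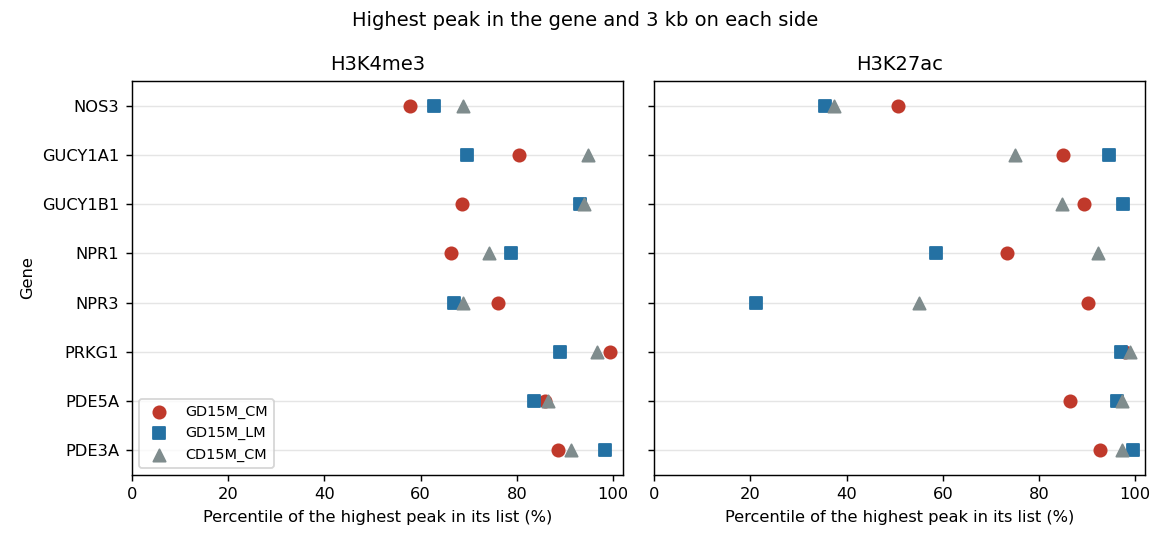
Percentile of the strongest peak of each gene and 3 kb on each side, within its own peak list, for H3K4me3 (left) and H3K27ac (right). Each point is 1 pooled list (circles GD15M_CM, squares GD15M_LM, triangles CD15M_CM) with no error, since replicates were pooled. NOS3 lies at 68.9 or below for both marks, whereas NPR3 H3K27ac spans 21.3 in GD15M_LM to 90.2 in GD15M_CM.

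NOS3, the endothelial synthase at the head of the chain, lies at chr18:6209218-6228912 and carried a small amount of both marks. At its low-coordinate end, in the region chr18:6209164-6211083, the H3K4me3 fold enrichment was 6.10 in GD15M_CM, 10.6 in GD15M_LM and 11.8 in CD15M_CM, and the percentiles were 57.7, 62.8 and 68.9. GD15M_CM was thus the lowest of the groups and CD15M_CM the highest, 11 points apart. The H3K27ac percentile in the same place was 50.7 in GD15M_CM, 35.5 in GD15M_LM and 37.5 in CD15M_CM, an order in which GD15M_CM was the highest. The H3K27ac fold enrichments were close, 3.51, 3.41 and 3.22 in the same order of groups. ATG9B, an autophagy gene, ends 229 bp below this end of NOS3, so the peak lies at the ends of both genes and cannot be assigned to either.

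The other end of NOS3 has no such neighbour, as the next gene, the potassium channel gene KCNH2, starts 13.9 kb away. There, at chr18:6227571-6229339, the H3K4me3 percentiles were 53.1 in GD15M_CM, 57.2 in GD15M_LM and 58.8 in CD15M_CM, a spread of 5.73 points. H3K27ac had peaks in this region only in GD15M_LM, where 2 short peaks reached a percentile of 15.2. Between 9.67% and 19.9% of the protein-coding genes with an H3K4me3 peak stood below NOS3 in the 3 lists. The endothelial marker genes, 11 of which have a position in the reference, were also low, with median H3K4me3 percentiles of 62.3, 62.4 and 67.3 (GD15M_CM, GD15M_LM and CD15M_CM) and median H3K27ac percentiles of 43.1, 33.1 and 26.1. Their H3K27ac percentiles ranged from 0 to 82.0 in GD15M_CM, from 0 to 73.0 in GD15M_LM and from 0 to 80.9 in CD15M_CM, with KDR at 0 in all 3 lists and ERG at 0 in GD15M_LM. The part of endothelial content in the NOS3 values was not tested.

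GUCY1A1 and GUCY1B1 encode the alpha and beta subunits of soluble guanylate cyclase, the receptor of nitric oxide, and lie side by side on chromosome 8 with 23.6 kb between them. Each carried a strong H3K4me3 peak at its low-coordinate end, and the groups stood in a different order at the 2 genes. At GUCY1A1 (chr8:44448758-44520737), the peak region chr8:44448063-44451537 had an H3K4me3 fold enrichment of 15.7 in GD15M_CM, 14.4 in GD15M_LM and 29.4 in CD15M_CM, with percentiles of 80.5, 69.6 and 94.9. At GUCY1B1 (chr8:44544364-44604690), the region chr8:44543591-44546411 had a fold enrichment of 10.5, 28.2 and 28.5, with percentiles of 68.5, 93.2 and 94.0 in the same order of groups. Longitudinal muscle was the lowest group at GUCY1A1 and stood with the cyclic muscle at GUCY1B1, where pregnant circular muscle was the lowest.

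In points of percentile, GUCY1B1 was 24.7 higher in GD15M_LM than in GD15M_CM, and this difference lay between 18.5 and 54.1 over all processing alternatives. CD15M_CM exceeded GD15M_CM at GUCY1B1 by 25.5 points, and by 20.3 to 53.9 over the alternatives. GUCY1A1 was 25.3 points higher in CD15M_CM than in GD15M_LM, and 16.4 to 47.2 over the alternatives. The smooth muscle marker genes moved in a similar way to GUCY1B1: their median H3K4me3 percentile was 75.7 in GD15M_CM, 91.0 in GD15M_LM and 88.9 in CD15M_CM, and 5 of 10 were higher in GD15M_LM than in GD15M_CM by at least 10 points (beside 20.2% of all genes tested), with none lower (beside 20.9%). Their H3K4me3 percentiles ranged from 71.0 to 85.1, from 71.4 to 98.5 and from 77.0 to 97.2, and none was at 0. For H3K27ac these markers were divided. By at least 10 points, 3 of 10 were higher in GD15M_LM than in GD15M_CM (beside 22.5%) and 2 were lower (beside 33.8%). Their median H3K27ac percentiles were 88.6, 94.5 and 94.2. The part of muscle content in the GUCY1B1 difference was not tested.

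The acetylation of the same places followed another order than the methylation at GUCY1A1, whereas at GUCY1B1 GD15M_CM was the lowest for both marks. At the low-coordinate end of GUCY1A1, the H3K27ac fold enrichment was 4.09 in GD15M_CM, 7.13 in GD15M_LM and 3.55 in CD15M_CM, with percentiles of 70.4, 94.6 and 51.2. At the low-coordinate end of GUCY1B1 it was 3.93, 8.11 and 4.89, with percentiles of 66.0, 97.5 and 84.8. Longitudinal muscle therefore had the highest H3K27ac at both cyclase genes, including GUCY1A1, where its H3K4me3 was the lowest, and CD15M_CM was the lowest for H3K27ac at GUCY1A1, where its H3K4me3 was the highest.

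H3K27ac also had peaks further inside the cyclase genes. GUCY1B1 had a single internal H3K27ac region, chr8:44559378-44560076, 15.4 kb from the low-coordinate end, with percentiles of 89.4 in GD15M_CM, 82.3 in GD15M_LM and 21.7 in CD15M_CM. Both pregnant lists stood far above the cyclic list there, by 67.6 and 60.6 points, the reverse of the H3K4me3 order at the end of the gene in circular muscle. GUCY1A1 had 8 H3K27ac regions, of which 3 were shared by all groups, 2 were found only in GD15M_CM and 3 only in CD15M_CM. The shared internal region at chr8:44455238-44455626 had percentiles of 83.2, 29.0 and 11.5, highest in pregnant circular muscle, and the one at chr8:44477535-44478291 had percentiles of 75.1, 48.0 and 74.9, lowest in longitudinal muscle.

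**Figure D2:**
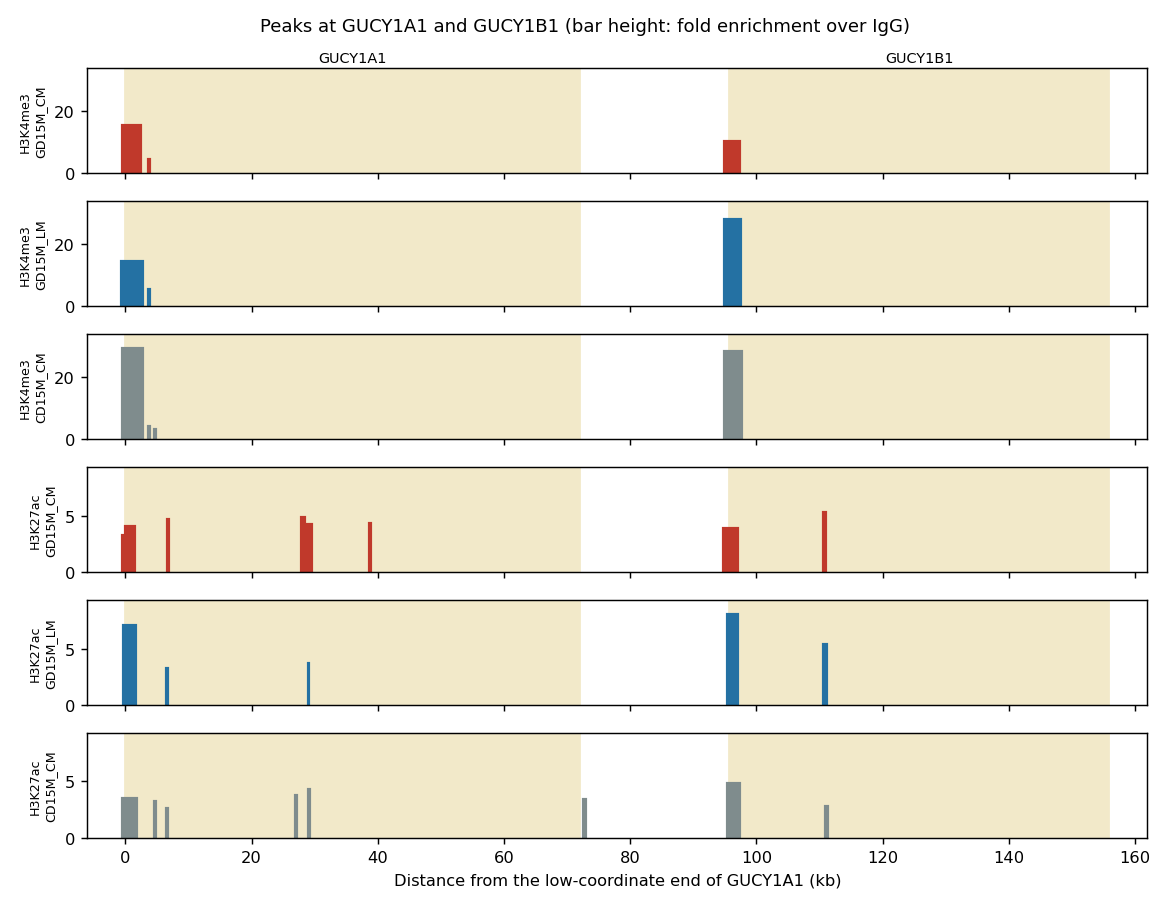
Peaks at GUCY1A1 and GUCY1B1 (shaded gene bodies) in the 6 pooled lists, by distance in kb from the low-coordinate end of GUCY1A1. Each bar is 1 peak, as wide as the peak with a thin outline that widens the shortest ones, and its height is the fold enrichment over IgG (on different scales for the marks). H3K4me3 is confined to the first few kb of each gene, where GUCY1B1 reaches 10.5 in GD15M_CM and 28.2 and 28.5 in the other groups, and H3K27ac also has short peaks further inside.

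NPR1 encodes the natriuretic peptide receptor that makes cyclic GMP, and lies at chr4:95957220-95974253. It had 2 H3K4me3 regions in all 3 lists, and the groups stood in a different order at each. Below the low-coordinate end, at chr4:95954763-95956510, the H3K4me3 percentiles were 66.3 in GD15M_CM, 58.8 in GD15M_LM and 68.8 in CD15M_CM, and the H3K27ac percentiles were 73.3, 43.4 and 92.3. At the high-coordinate end, at chr4:95970733-95974819, the H3K4me3 fold enrichment was 8.74, 19.1 and 15.1 with percentiles of 65.0, 78.8 and 74.1, and the H3K27ac percentiles were 18.7, 58.7 and 53.8. Longitudinal muscle was thus the lowest for both marks before the low-coordinate end and the highest for both at the other end.

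NPR3 encodes the clearance receptor, which takes natriuretic peptides out of the circulation and has no cyclase of its own. It lies at chr16:18841540-18929813, and a long non-coding RNA, LOC102162488, overlaps it from chr16:18912542, far from the peaks. At the low-coordinate end, at chr16:18839844-18842103, the H3K4me3 fold enrichment was 13.9 in GD15M_CM, 13.0 in GD15M_LM and 11.8 in CD15M_CM, with percentiles of 76.2, 67.0 and 68.8. The H3K27ac fold enrichment in the same region was 5.41, 3.05 and 3.66, with percentiles of 90.2, 21.3 and 55.1. The H3K4me3 percentiles of this region lay within 9.20 points of each other. H3K27ac was 68.9 percentile points lower in longitudinal than in pregnant circular muscle, the widest difference between any of the lists in the strongest peak of the 8 genes. A second H3K4me3 region held by all 3 lists, chr16:18842347-18844822, had percentiles of 36.4 in GD15M_CM, 44.7 in GD15M_LM and 55.1 in CD15M_CM, and was thus 18.6 points higher in the cyclic than in the pregnant circular muscle.

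In the longitudinal list the acetylation of this region was a single peak of 256 bp with a −log10 p of 3.33. In GD15M_CM it was 2 peaks covering 1382 bp, the stronger with a −log10 p of 10.3. The longitudinal peak, chr16:18841626-18841881, touched neither of them, as the nearer ended at chr16:18841608. The NPR3 H3K27ac difference between GD15M_CM and GD15M_LM kept its direction in every alternative, at 21.8 to 79.3 points, and that between GD15M_CM and CD15M_CM, 35.0 points, also kept it, at 21.8 to 39.3. Marker genes of the uterine epithelium moved with it: 7 of 8 had H3K27ac at least 10 points higher in GD15M_CM than in GD15M_LM (beside 33.8% of all genes tested), and their median percentile was 75.5 in GD15M_CM, 13.6 in GD15M_LM and 67.0 in CD15M_CM. They ranged from 33.1 to 94.6, from 0 to 42.1 and from 4.75 to 84.9, and GRHL2, KRT18 and KRT19 were at 0 in GD15M_LM. For H3K4me3, 8 of 8 were at least 10 points higher in GD15M_CM than in GD15M_LM (beside 20.9%), with medians of 79.4, 57.7 and 78.0. The H3K4me3 of NPR3 at its low-coordinate end was 9.20 points higher in GD15M_CM than in GD15M_LM. Whether epithelial content had a part in the NPR3 values was not tested.

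PRKG1 encodes the cyclic GMP-dependent protein kinase of smooth muscle and is by far the longest of the 8 genes, 1235 kb at chr14:97558531-98793080. No peak of either mark touched its low-coordinate end in any list, and its H3K4me3 peaks gathered in 3 places. Its strongest H3K4me3 peak in circular muscle, at chr14:98105145-98107896, had a fold enrichment of 33.2 in GD15M_CM, 23.9 in GD15M_LM and 32.1 in CD15M_CM, with percentiles of 99.3, 87.5 and 96.7. This peak lies in CSTF2T, an RNA-processing gene at chr14:98104957-98109479 that is nested in PRKG1, so it cannot be assigned to PRKG1. The strongest H3K27ac peak of PRKG1 in GD15M_CM, with a percentile of 97.8, lies there too.

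The other 2 places lie at the high-coordinate end and 82.5 kb inside it. Inside, at chr14:98708112-98712984, the H3K4me3 fold enrichment was 10.2 in GD15M_CM, 24.9 in GD15M_LM and 26.4 in CD15M_CM, with percentiles of 68.1, 89.0 and 92.0, and the H3K27ac percentiles were 57.1, 96.7 and 98.9. At the end itself, at chr14:98790321-98794027, the H3K4me3 fold enrichment was 10.1, 15.5 and 22.5, with percentiles of 67.7, 71.7 and 86.9, and the H3K27ac percentiles were 21.9, 10.4 and 86.6. Pregnant circular muscle had the lowest H3K4me3 at both places, and longitudinal muscle resembled the cyclic muscle at the internal place but not at the end of the gene.

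The choice of peaks decides what PRKG1 shows between the muscle layers. With all its peaks, the H3K4me3 percentile was 10.4 points higher in GD15M_CM than in GD15M_LM, through the CSTF2T peak. Without the peaks near that gene it was 20.9 points higher in GD15M_LM. A further H3K27ac region, chr14:98703267-98704208, 89.3 kb inside the high-coordinate end, held an H3K4me3 peak only in GD15M_LM (a percentile of 50.8) and had H3K27ac percentiles of 77.3, 97.0 and 86.9, highest in longitudinal muscle.

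**Figure D3:**
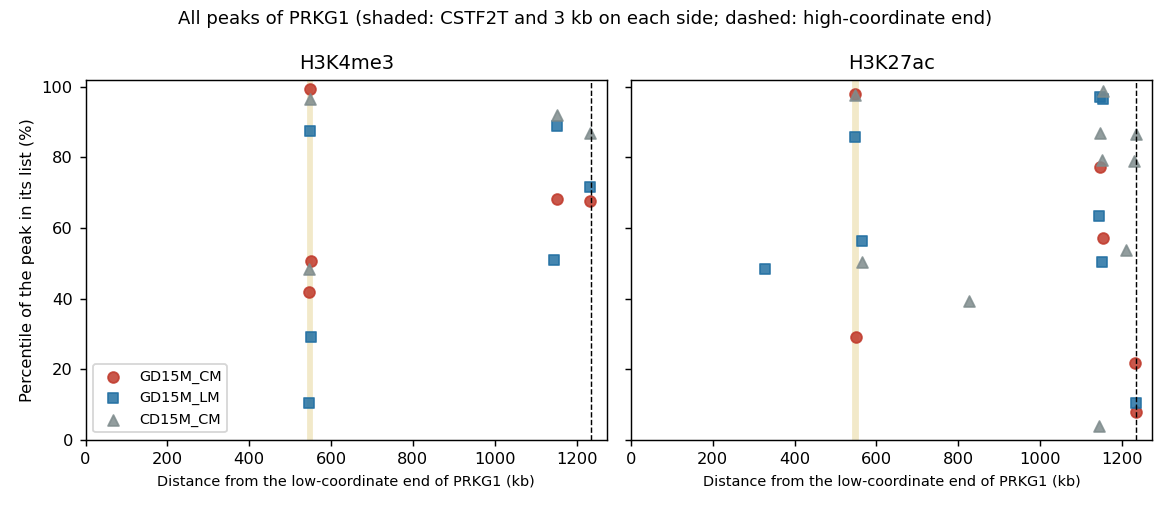
Every peak of PRKG1 by distance in kb from its low-coordinate end and by percentile in its own list, H3K4me3 on the left and H3K27ac on the right, with groups marked as circles (GD15M_CM), squares (GD15M_LM) and triangles (CD15M_CM). The shaded band is CSTF2T with 3 kb on each side and the dashed line is the high-coordinate end. The circles are highest in the band (99.3 for H3K4me3) and lower than the other groups at the internal place near 1152 kb (68.1).

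PDE5A encodes the phosphodiesterase that cuts cyclic GMP and is the target of sildenafil. It lies at chr8:104270858-104420955 and had 1 H3K4me3 peak in each list, at the low-coordinate end (chr8:104270026-104275037). The fold enrichment of that peak was 18.1 in GD15M_CM, 21.7 in GD15M_LM and 22.3 in CD15M_CM, with percentiles of 85.9, 83.5 and 86.6, so the groups lay within 3.06 points of each other. The peak was long, 4406, 5012 and 4542 bp, longer than the longest H3K4me3 peak of 85.5%, 87.1% and 82.4% of the protein-coding genes with a peak. The H3K27ac percentile in the same region was 70.4 in GD15M_CM, 96.2 in GD15M_LM and 93.2 in CD15M_CM, lowest in pregnant circular muscle.

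PDE5A also held the most H3K27ac peaks of the 8 genes, with 22 in CD15M_CM, 10 in GD15M_LM and 8 in GD15M_CM, covering 14440, 8719 and 6394 bp. They fell into 22 regions, of which 6 were found in all 3 lists and 10 only in CD15M_CM. The peak number in CD15M_CM was over 2 times that in GD15M_CM, which 12.9% of 5454 protein-coding genes with at least 5 peaks in either list also showed, and over 2 times that in GD15M_LM, which 30.4% of 4735 showed, a rule set after the PDE5A counts were seen. The regions found only in CD15M_CM were 243 to 656 bp long, beside a median of 559 bp for all peaks of that list. Their percentiles ranged from 16.7 to 88.2, most of them above the middle of the list, and their highest −log10 p was 8.63. With a strict threshold for a peak (a −log10 p of at least 10 and a fold enrichment of at least 5), the 8 genes together kept 59 of the 177 peaks.

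Several of the internal PDE5A regions shared by the groups also differed in strength. At chr8:104393569-104395104, 123 kb from the low-coordinate end, the H3K27ac fold enrichment was 2.85 in GD15M_CM, 6.25 in GD15M_LM and 6.81 in CD15M_CM, with percentiles of 21.3, 89.8 and 97.2. About 3 kb further, at chr8:104396605-104397620, the percentiles were 86.5, 19.3 and 31.2. Pregnant circular muscle was the lowest group in the first of these neighbouring regions and the highest in the second.

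**Figure D4:**
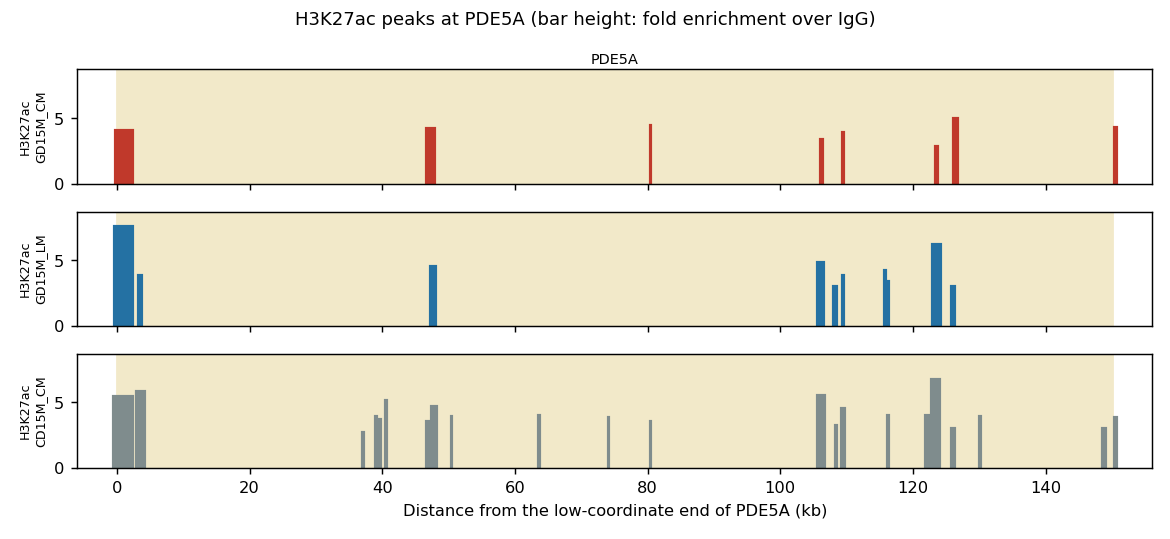
H3K27ac peaks of PDE5A (shaded gene body) in the 3 pooled lists, by distance in kb from its low-coordinate end. Each bar is 1 peak and its height is the fold enrichment over IgG. CD15M_CM has 22 peaks, many of them short and between 37.1 and 74.1 kb, where GD15M_CM and GD15M_LM share only the region at 47.4 kb with it.

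PDE3A encodes a phosphodiesterase that cuts cyclic AMP and is inhibited by cyclic GMP, which links both messengers in smooth muscle. It lies at chr5:52413503-52737771, and its strong peaks of both marks were at the high-coordinate end, at chr5:52734448-52739814. The H3K4me3 fold enrichment there was 19.5 in GD15M_CM, 36.7 in GD15M_LM and 25.9 in CD15M_CM, with percentiles of 88.6, 98.4 and 91.3. The H3K27ac fold enrichment was 5.74, 10.1 and 6.85, with percentiles of 92.7, 99.5 and 97.3. Longitudinal muscle was the highest group for both marks, by 9.84 points over GD15M_CM for H3K4me3, just under the 10 points used to call a difference, and by 6.82 points for H3K27ac.

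The longest PDE3A H3K4me3 peak spanned 5367 bp in CD15M_CM, 3959 bp in GD15M_CM and 2704 bp in GD15M_LM, the list with the strongest peak. In both pregnant lists the region held a second, separate peak, of 718 bp in GD15M_CM and 635 bp in GD15M_LM. The lengths thus compare parts of a split region with an unsplit one. H3K27ac had 1 peak in GD15M_LM, 4 in CD15M_CM and 7 in GD15M_CM, and 2 regions deep in the gene, at chr5:52452632-52453487 and chr5:52491655-52491977, were held by both circular muscle lists and not by the longitudinal list, with percentiles between 49.1 and 65.4.

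Across the 8 genes, H3K4me3 regions were more often shared by the lists than H3K27ac regions, as they were at all protein-coding genes. Of 22 H3K4me3 regions, 15 (68.2%) were found in all 3 lists, beside 46.7% of 36355 regions at all protein-coding genes. Of 65 H3K27ac regions, 20 (30.8%) were found in all 3 lists, beside 34.0% of 78302. Regions found only in CD15M_CM made up 23 of the 65 (35.4%, beside 19.3%), of which 10 belong to PDE5A, whereas 5 (7.69%, beside 20.7%) were found only in GD15M_CM and 5 (7.69%, beside 5.15%) only in GD15M_LM. None of these regions of a single list reached the −log10 p of 10 of the strict threshold. The highest was 8.63, at PDE5A in CD15M_CM. H3K27ac also lay deeper inside the genes than H3K4me3, which again held for all protein-coding genes. Of its peaks, 33.9% to 44.1% were within 3 kb of either end of a gene, against 61.9% to 68.8% of the H3K4me3 peaks. For all protein-coding genes these shares were 44.8% to 51.0% and 73.5% to 77.1%.

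The 15 shared H3K4me3 regions were more often stronger in the cyclic muscle. By a difference of at least 10 percentile points, 6 of them were higher in CD15M_CM than in GD15M_CM, beside 26.3% of 16971 shared regions at protein-coding genes, and 0 were lower (13.6%). The 6 regions were at NOS3 (the end it shares with ATG9B), GUCY1A1, GUCY1B1 and NPR3 and the 2 places of PRKG1 at and near its high-coordinate end. Against GD15M_LM, 5 were higher in CD15M_CM (26.5%) and 0 were lower (13.2%). Between the layers, 3 were higher in GD15M_LM (21.6%) and 3 in GD15M_CM (22.1%). Those higher in GD15M_LM were at GUCY1B1, NPR1 and the internal place of PRKG1. Those higher in GD15M_CM were at GUCY1A1, chr14:98103561-98104536 and chr14:98105145-98107896. Both chr14 regions lie in CSTF2T or within 3 kb of it, and the former is also among the 5. In the former, the GD15M_CM and GD15M_LM peaks do not touch each other and were joined through the CD15M_CM peak. The cyclic-muscle majority is also that of the whole genome, and the members' counts were small.

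**Figure D5:**
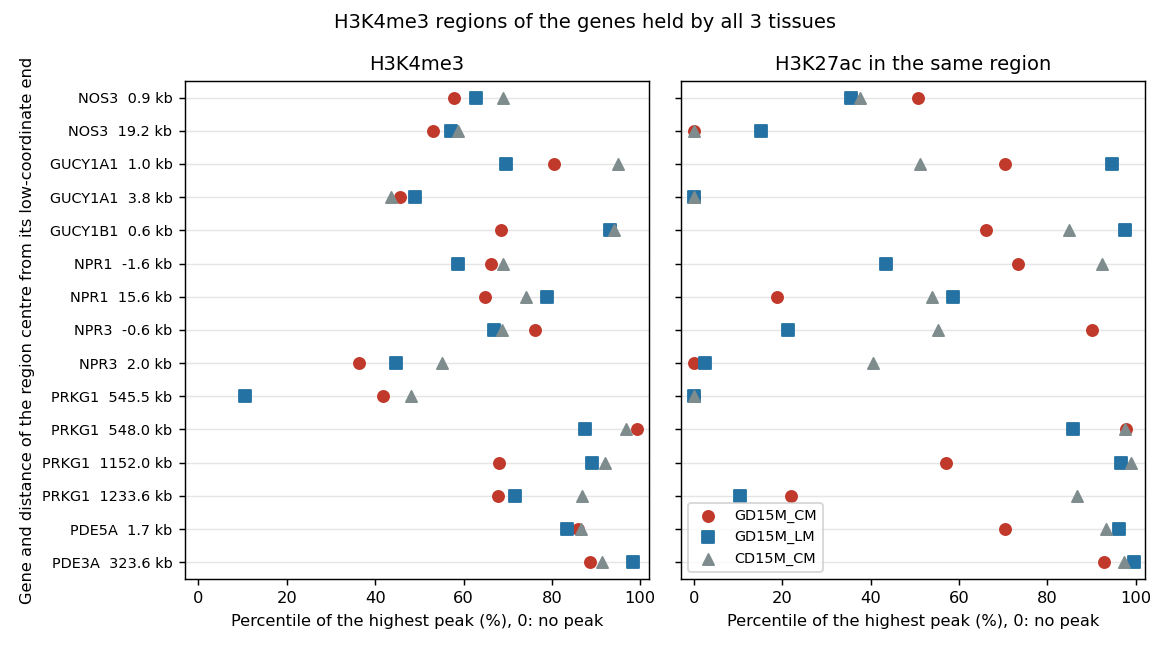
The 15 H3K4me3 regions found in all 3 lists, with the H3K4me3 percentile on the left and the H3K27ac percentile of the same region on the right, where 0 means no peak and points at 0 lie over each other. Rows give the gene and the distance of the region's centre from its low-coordinate end, and the symbols are the groups. At GUCY1A1 1.0 kb the groups run GD15M_LM, GD15M_CM, CD15M_CM from low to high for H3K4me3 (69.6, 80.5, 94.9) and CD15M_CM, GD15M_CM, GD15M_LM for H3K27ac (51.2, 70.4, 94.6).

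Counted as whole genes, the share of the 8 members that differed between the groups was near or below that of all genes in most comparisons. For H3K4me3, GUCY1B1 and NPR1 were at least 10 points higher in GD15M_LM than in GD15M_CM (2 of 8, beside 20.2% of 17636 genes tested), and GUCY1A1 and PRKG1 were higher in GD15M_CM (2 of 8, beside 20.9%). The PRKG1 value rests on the peak in CSTF2T: without peaks near another gene PRKG1 was 20.9 points higher in GD15M_LM, and 3 members were higher in GD15M_LM and 1 in GD15M_CM. NOS3, GUCY1A1 and GUCY1B1 were higher in CD15M_CM than in GD15M_CM (3 of 8, beside 23.9% of 17645), and none was lower (beside 12.4%). GUCY1A1 was higher in CD15M_CM than in GD15M_LM (1 of 8, beside 24.7% of 17800), and none was lower (beside 12.8%). The median difference of the 8 genes was 1.33 points for GD15M_LM minus GD15M_CM, −5.27 for GD15M_CM minus CD15M_CM and −2.42 for GD15M_LM minus CD15M_CM, against −0.399, −2.13 and −2.36 for all genes.

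For H3K27ac, NOS3, NPR1 and NPR3 were higher in GD15M_CM than in GD15M_LM (3 of 8, beside 33.8% of 18567), and none was higher in GD15M_LM (beside 22.5%). The fold enrichments themselves were close for NOS3 (3.51 in GD15M_CM and 3.41 in GD15M_LM) and NPR1 (4.18 and 4.09). These calls are thus of rank within lists of different size. GUCY1A1 and PDE5A lay just under the 10 points between the layers, 9.72 and 9.75 higher in GD15M_LM. These values compare peaks in different places: the strongest peak was at the low-coordinate end in GD15M_LM and inside the gene in GD15M_CM. At the low-coordinate ends themselves, GD15M_LM was 24.2 (GUCY1A1) and 25.9 points (PDE5A) higher. The strongest NPR1 peaks also lay at different ends of the gene in the layers. The split of members higher in GD15M_LM and in GD15M_CM depended on the processing. It was 3 and 1 with equal list lengths, 4 and 1 with the strict threshold and 3 and 3 with joined peaks. It was 3 and 4 with 3 kb around either end, and 2 and 2 without peaks near another gene. NOS3 and NPR3 were higher in GD15M_CM than in CD15M_CM (2 of 8, beside 25.5% of 18998), and NPR1 and PDE5A were higher in CD15M_CM (2 of 8, beside 27.4%). GUCY1A1 and GUCY1B1 were higher in GD15M_LM than in CD15M_CM (2 of 8, beside 20.9% of 18611), and NPR1 and NPR3 were higher in CD15M_CM (2 of 8, beside 34.5%). The median differences were 3.0, 1.75 and −1.43 points, against −2.30, −0.154 and −2.85 for all genes. These comparisons share their lists in pairs, so their values are set side by side and not counted as separate evidence.

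The rest of the pathway was examined through 4 lists of genes. Of 19 other cyclic nucleotide phosphodiesterases, all had an H3K27ac peak in each list, with a median percentile of 64.4 in GD15M_CM, 84.2 in GD15M_LM and 86.1 in CD15M_CM. By at least 10 points, 9 of them were higher in GD15M_LM than in GD15M_CM (beside 22.5% of all genes tested) and 3 were lower (beside 33.8%). For H3K4me3, 6 were higher (beside 20.2%) and 2 lower (beside 20.9%), with medians of 69.5, 70.9 and 73.5. PDE1A, a calcium- and calmodulin-dependent phosphodiesterase, had H3K27ac percentiles of 22.2 in GD15M_CM, 84.9 in GD15M_LM and 81.7 in CD15M_CM, and its relative PDE1C had 4.82, 65.2 and 56.6. PDE4B, which cuts cyclic AMP, ran the other way with 97.5, 78.8 and 86.6, and so did PDE6D, a prenyl-binding protein named as a phosphodiesterase subunit, with 96.0, 68.4 and 88.1.

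Of 14 genes of the kinase's relatives and targets, 7 had H3K4me3 at least 10 points higher in GD15M_LM than in GD15M_CM and 3 had it lower, with medians of 77.9, 85.8 and 81.3. For H3K27ac, 3 were higher and 3 lower, with medians of 91.8, 89.4 and 94.7. The shares of all genes are those given for the phosphodiesterases. KCNMB1, a subunit of the large-conductance potassium channel that the kinase opens, had H3K4me3 percentiles of 69.0, 93.5 and 80.6. ATP2A2, the calcium pump of the sarcoplasmic reticulum, had 98.6, 78.8 and 97.6. PLN, the brake of that pump, had no H3K27ac peak in GD15M_CM and percentiles of 79.4 in GD15M_LM and 76.0 in CD15M_CM.

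Of 17 genes of other nitric oxide synthases and cofactor supply, 4 had H3K4me3 at least 10 points higher in GD15M_LM than in GD15M_CM (beside 20.2% of all genes tested) and 5 had it lower (beside 20.9%). Their medians were 77.5, 70.9 and 75.0. H3K27ac was also higher in 4 (beside 22.5%) and lower in 5 (beside 33.8%), with medians of 75.8, 77.6 and 77.7. NOS1, the neuronal synthase, had no peak of either mark in any list, and NOS2, the inducible synthase, had H3K27ac percentiles of 39.3 in GD15M_CM, 0 in GD15M_LM and 16.2 in CD15M_CM. CAV1, the caveolar protein that binds NOS3, had H3K4me3 percentiles of 71.2, 90.7 and 81.1 and H3K27ac percentiles of 50.9, 87.4 and 76.3. Of 12 other guanylate cyclases, natriuretic peptides and their processing genes, 2 had H3K4me3 higher (beside 20.2%) and 2 lower (beside 20.9%) in GD15M_LM, with medians of 52.0, 59.0 and 66.3. For H3K27ac, 3 were higher (beside 22.5%) and 0 lower (beside 33.8%), with medians of 35.2, 59.5 and 56.8. NPPB, the gene of B-type natriuretic peptide, had H3K27ac only in GD15M_LM (51.2), and GUCY1A2, the other alpha subunit of the cyclase, had 0, 30.7 and 32.4.

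Genes with the 6 percentiles closest to those of a member were sought among all RefSeq genes with a symbol, by the root mean square difference over the 3 groups and 2 marks. TMEM267 was the closest to GUCY1B1, 2.07 points away, and 36 genes lay within 5 points. RAMP3 and TBRG4, which share their strongest peaks, were the closest to GUCY1A1 at 1.47 points, with 8 genes within 5 points. ACAP2 was 0.70 points from PRKG1 and PDZD8 0.926 points from PDE3A, with 887 and 807 genes within 5 points, so these patterns were common. KIF3C was 2.2 points from PDE5A, PDZD2 3.61 points from NPR1 and TOP1MT 4.08 points from NOS3. For NPR3 the closest gene, TSKS, was 5.61 points away, and no gene lay within 5 points, so its pattern was the least shared of the 8.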

How the data were processed

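H3K4me3, H3K27ac and IgG were profiled by CUT&Tag in 18 libraries, 2 gilts per group and assay. Per the labels and the methods, the authors mapped reads to Sscrofa11.1 with BWA (0.7.17-r1188), filtered them with SAMtools (1.9) and Picard (2.8.3), pooled replicates and called peaks with MACS2 (2.2.6), which gave the 6 deposited lists. The deposited fold enrichment is the ratio of a peak's signal over IgG, and its scaling is not given in the sources used here. The deposited −log10 p-value column has an unreadable name and was identified by its match with the study's peak table. Another column, taken for −log10 q, was not used. Peak length is in bp, as deposited. Depth per library is not in the lists, so no interval was set on any value.

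Peaks touching a gene and 3 kb on each side were collected with Python 3.11.15, NumPy 2.4.6 and pandas 2.3.3, and figures were drawn with Matplotlib 3.10.9. A gene without a peak had a percentile of 0. Peaks of 1 mark that touched each other in the 3 lists were joined to a region. A difference of at least 10 percentile points was called, and the share of all genes called alike is given beside it. With pooled replicates there was 1 value per group and no test. The overlap code was tested on simulated data. The members and gene lists, like the count of regions by strength and the rule on peak numbers, were chosen with earlier results of these data known. All 8 members are described, with up to 4 genes per list, those whose percentile differed most in either direction between GD15M_LM and GD15M_CM, or, for NOS1, GUCY1A2 and markers at 0, named after their values were seen. NOS1AP, HSP90AA1, CRIP2, CYB5R3 and EGFL7 had no position in the gene table. Alternatives were a strict threshold, rank by −log10 p, equal list lengths, joined peaks, other windows and overlap, a larger call, protein-coding genes only, and, added after the data were seen, leaving out peaks near another gene. Sequences and strand were not used here.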

Additional observations from a re-analysis of the deposited data

How the results depend on the processing

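No paired analysis was possible because the replicates were pooled before peak calling, and for the same reason no replicate could be left out. Of 384 differences recomputed under 8 alternatives, 326 moved little, 50 moved and 8, all of at least 10 points as reported, changed direction. Counting differences under 10 points too, 31 changed direction, among them for H3K4me3 in GD15M_CM minus CD15M_CM that of PRKG1, from 2.65 to −19.2 (either end) and −23.9 (no peaks near another gene), of NPR1, from −7.81 to 9.21 (10 kb), and of NPR3, from 7.41 to −1.36 (−log10 p). The members called between GD15M_LM and GD15M_CM for H3K4me3 went from 4 to 7 (strict threshold), 1 (rank by −log10 p) and 1 (20 points). Between GD15M_CM and CD15M_CM they went from 3 to 5, 1 and 1, and between GD15M_LM and CD15M_CM from 1 to 4 (strict), 3 (joined peaks), 2 (either end) and 2 (10 kb). For H3K27ac they went from 3 to 5 (strict), 6 (joined), 7 (either end) and 1 (20 points) between the layers, where the members higher in GD15M_LM went from 0 to between 0 and 4, from 4 to 2 (−log10 p), 7 (either end) and 1 (20 points) between GD15M_CM and CD15M_CM, and from 4 to 2 (20 points) between GD15M_LM and CD15M_CM. The 177 peaks became 59 under the strict threshold, and the H3K27ac regions in all 3 lists went from 30.8% to 16.7% (2 of 12, strict) and 44.4% (20 of 45, joined). The PRKG1 H3K4me3 difference of GD15M_LM minus GD15M_CM turned to 3.94 points (either end) and 20.9 (no peaks near another gene). The NOS3 H3K27ac difference turned to 2.64 (equal list lengths) and 15.2 (no peaks near another gene) between the layers, and to −0.356 (−log10 p) and −36.4 (no peaks near another gene) for GD15M_CM minus CD15M_CM. With 10 kb on each side, NPR1 H3K27ac turned to 7.18 for GD15M_CM minus CD15M_CM and to 6.18 for GD15M_LM minus CD15M_CM. Apart from the strict threshold, which removes peaks by construction, and the peaks near another gene, the cause was not tested.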

Other observations

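Many peaks of a list share their values. In the H3K27ac list of GD15M_CM, 97.1% of the 79877 peaks had the same fold enrichment and −log10 p as at least 1 other peak. The low-coordinate ends of GUCY1A1 and PDE5A shared 1 pair of values there (a fold enrichment of 4.09 with a −log10 p of 12.4, held by 27 peaks), and short peaks inside GUCY1A1, PDE3A and PDE5A shared another (4.36 with 6.66, held by 585 peaks), so equal percentiles at these genes are ties and not separate measurements. Fibroblast and pericyte markers had median H3K27ac percentiles of 66.0 in GD15M_CM, 90.8 in GD15M_LM and 85.4 in CD15M_CM over 8 genes. RGS5 and LUM were at 0 in both pregnant lists, and the highest of the 8 reached 96.8, 97.6 and 98.3. Leukocyte markers had median H3K27ac percentiles of 45.5, 43.7 and 52.8 over 8 genes, with PTPRC, CD3E and CD3D at 0 in all 3 lists. The other 5 had an H3K27ac peak in each list, and the highest, SPI1, stood at 91.4, 89.8 and 95.8. All 8 leukocyte markers had an H3K4me3 peak in each list, with medians of 63.6, 62.5 and 54.2.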
